A study of Ovis aries with 12 samples.

Results

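COX1, COX2, COX3, CYTB, ATP6 and ATP8 are protein genes of the mitochondrial genome, and they were followed over fetal, control and shunt right ventricles of sheep. They were picked by name as 6 of the 27054 rows of the deposited count table, and all 6 were among the 13065 rows tested. Their identifiers are ENSOARG00000000016 (COX1), ENSOARG00000000019 (COX2), ENSOARG00000000023 (COX3), ENSOARG00000000035 (CYTB), ENSOARG00000000022 (ATP6) and ENSOARG00000000021 (ATP8). The table lists PTGS1 and PTGS2, the cyclooxygenase genes that share the alias COX, on rows of their own. In the RefSeq sheep table (assembly ARS-UI_Ramb_v3.0) all 6 symbols lie on the mitochondrial genome. Among its protein genes COX1, COX2, ATP8, ATP6 and COX3 follow each other in that order, with ATP8 overlapping ATP6, and CYTB stands last, after ND6.

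Snap-frozen free wall of the right ventricle gave 4 fetal libraries, 4 libraries of control lambs at 4 to 6 weeks of age and 4 libraries of shunt lambs in that age range. In the shunt lambs an aortopulmonary graft had been inserted by surgery in utero, and the resulting left-to-right shunt loads the right ventricle with pressure. Whether the libraries of a group are separate animals is not said in the labels, so the tests speak to the scatter among libraries, part or all of which may be technical. The 3 comparisons share libraries pairwise and are not independent of each other.

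The mitochondrial genome carries a small set of protein genes, all of them for the respiratory chain and ATP synthase. COX1, COX2 and COX3 encode the catalytic core of cytochrome c oxidase (complex IV), which passes electrons to oxygen. CYTB encodes the only subunit of the cytochrome bc1 complex (complex III) made in mitochondria, and ATP6 and ATP8 encode membrane subunits of ATP synthase. In mammals these genes are transcribed as long precursors that are cut at transfer RNAs, and ATP8 and ATP6 stay together on a single messenger RNA. Heart muscle is rich in mitochondria, and its reliance on oxidative metabolism grows after birth. The assay gives RNA levels and says nothing of protein or of enzyme activity.

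Total counts ranged from 19111348 to 44946875 per library, and the 13 mitochondrially encoded protein genes held 26.7% to 50.0% of them in fetal and control libraries. Shunt 1 and shunt 2 stood apart, with 72.6% and 71.4% of counts on these 13 genes, which left 7152139 and 7140136 counts to every other row, where no fetal or control library had under 10702663. Shunt 3 and shunt 4 were at 54.6% and 45.6%. Of the heart muscle markers MYL2, MYOZ2, TPM1 and MB were named in the table, and together they made up 19915 to 36167 CPM (TMM-scaled counts relative to library size) in every library, so the tissue label holds for these markers. Of the 4, 3 had positive log2 changes in control against fetal and 1 was called higher by edgeR, beside 2.66% of all genes. MB was at 3883 to 5939 CPM in fetal, 8853 to 10171 in control and 5347 to 10471 in shunt libraries. Summed levels of 4 named fat cell markers of 6 listed (ADIPOQ, PLIN1, LIPE, FABP4) were 1.79 to 4.35 CPM in fetal, 3.72 to 18.2 in control and 5.28 to 115 in shunt libraries, and their part in the results was not tested. These markers did not move together. FABP4 made up most of the shunt sum, with 36.2, 63.1 and 113 CPM in shunt 1, shunt 2 and shunt 3 but 3.30 CPM in shunt 4, and was called higher in shunt against fetal (edgeR adjusted p = 0.00816) and not in shunt against control (adjusted p = 0.0713). LIPE was called lower in shunt against control (log2 change -1.90, edgeR adjusted p = 0.0487), and ADIPOQ was at most 1.30 CPM in any library. Those of 2 endothelial markers (KDR, AQP1) were 107 to 118, 61.4 to 84.8 and 52.5 to 134 CPM in the same order. The smooth muscle marker CNN1 was higher in fetal libraries, at 17.2 to 33.7 CPM, than in control (3.17 to 12.3 CPM) and shunt libraries (1.32 to 16.2 CPM), with no overlap but no call. Such a lack of overlap, with fetal libraries higher, held for 10.2% of all genes against control and 9.89% against shunt. Without shunt 1 and shunt 2 CNN1 was called lower in control against fetal (log2 change -1.71, edgeR adjusted p = 0.021). The fibroblast marker DCN was at 399 to 527, 340 to 437 and 242 to 524 CPM in the fetal, control and shunt group. Summed leukocyte markers (CD14, MRC1, CD3E, GNLY) reached at most 13 CPM in fetal, 15.6 to 27.9 CPM in control and 10.9 to 24.5 CPM in shunt libraries. A lack of overlap with controls above fetal libraries held for 9.18% of all genes. MRC1 made up most of the sum, at 4.92 to 11.3 CPM in fetal and 12.7 to 23.7 CPM in control libraries. Of the 4, 3 had positive log2 changes in control against fetal. CD3E overlapped, at 0.0879 to 2.07 CPM in fetal and 0.220 to 1.19 CPM in control libraries. GNLY, at most 1.31 CPM in any library, was called higher in control against fetal and in shunt against fetal (edgeR adjusted p = 0.0417 and 0.0286). The calls of LIPE and GNLY were lost when some single libraries were left out. The part of these cell types in the results was not tested either. No red blood cell marker was named in the table. In bulk tissue a change in the number of cells of a type and a change in RNA per cell cannot be told apart.

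The 6 genes together held 21.2%, 18.9%, 28.6% and 24.6% of all counts in fetal 1 to fetal 4. They held 29.0%, 32.8%, 34.0% and 29.9% in control 1 to control 4, and 46.9%, 43.6%, 38.9% and 31.7% in shunt 1 to shunt 4. The control libraries all lay above the fetal ones, and 3 of the 4 shunt libraries lay above every control, while shunt 4 lay within the control range. The group means came to 23.3% ± 4.22 for fetal, 31.4% ± 2.34 for control libraries, and 40.3% ± 6.59 for shunt (each n = 4, with SD). When shunt 1 and shunt 2 were left out, the mean of the remaining shunt libraries was 35.3%. Set against the counts of all nuclear genes and other rows, the 6 genes had 25.8 to 48.6 counts per 100 in fetal and 52.2 to 68.0 in control libraries. In shunt 1 to shunt 4 they had 171, 152, 85.7 and 58.4 per 100. Fewer nuclear counts and more mitochondrial counts change this ratio alike, and the part of either was not tested.

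**Figure D1:**
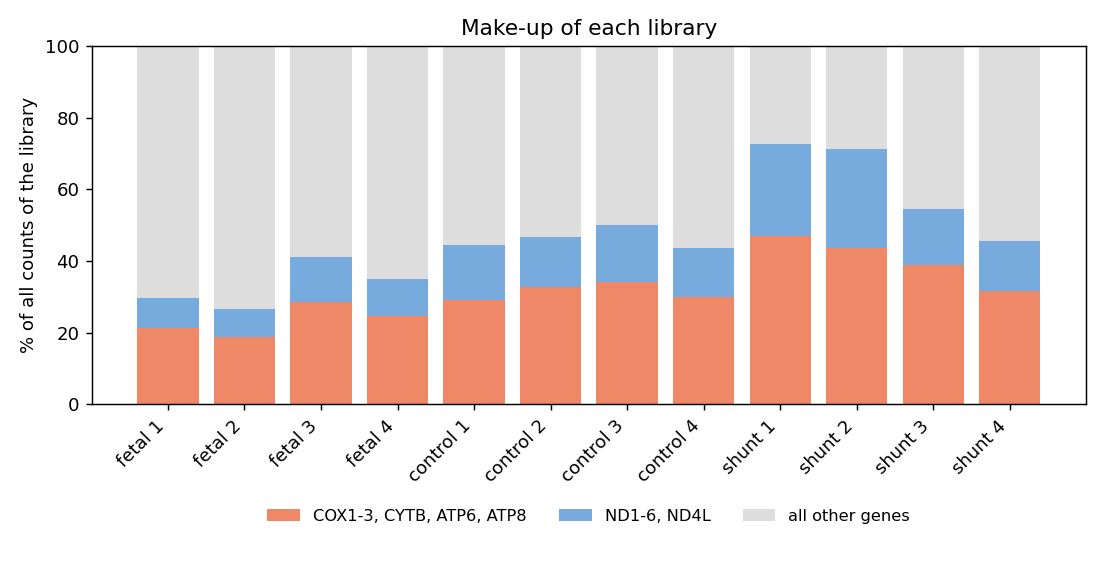
Percent of all counts (y axis) in each of the 12 libraries (x axis), split into the 6 genes described here, the 7 ND genes and all other rows. The lower segment runs from 18.9% in fetal 2 to 46.9% in shunt 1, and the 2 tallest mitochondrial parts are those of shunt 1 and shunt 2.

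COX1 encodes the subunit of complex IV that holds the oxygen-reducing centre. It took 7.34%, 5.87%, 9.39% and 8.20% of all counts in fetal 1 to fetal 4, 10.9%, 11.5%, 11.5% and 10.5% in control 1 to control 4, and 14.1%, 12.2%, 12.0% and 11.0% in shunt 1 to shunt 4. All control and shunt values exceeded the highest fetal value, and shunt 4 fell inside the control range. Counting error is small beside this spread: the 95% Wilson interval for COX1 in fetal 2, the lowest value, ran from 5.86% to 5.88%.

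COX2, the subunit that takes electrons from cytochrome c, took 3.40%, 2.80%, 4.33% and 3.94% in the fetal, 3.99%, 5.35%, 4.65% and 4.45% in the control, and 7.32%, 7.82%, 5.39% and 3.88% in the shunt libraries. Shunt 1 and shunt 2 were far above all others, and shunt 4 lay below every control. COX3, the third core subunit, took 4.35%, 3.85%, 5.59% and 4.63% in fetal, 4.91%, 5.65%, 6.69% and 5.27% in control, and 7.88%, 7.73%, 7.56% and 6.00% in shunt libraries. Here 3 shunt libraries were close together above all controls, and shunt 4 was inside the control range.

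CYTB, which carries the hemes of complex III that move electrons between quinone sites, took 2.66%, 3.27%, 4.94% and 4.15% in fetal and 4.89%, 5.20%, 5.36% and 4.94% in control libraries. In shunt 1 to shunt 4 it took 9.72%, 7.04%, 7.67% and 6.00%. CYTB was the gene of the 6 whose shunt libraries all lay above all controls in share of all counts, which held in this direction for 0.429% of all tested genes. Its control libraries were tight, with a coefficient of variation of 4.35%, against 26.6% in fetal and 20.6% in shunt libraries.

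ATP6 encodes the proton channel subunit of ATP synthase. It took 3.25%, 2.98%, 4.08% and 3.42% in fetal, 4.03%, 4.78%, 5.56% and 4.52% in control, and 7.49%, 8.53%, 5.95% and 4.61% in shunt libraries. As for COX2, shunt 1 and shunt 2 were the highest, and here shunt 4 was inside the control range. ATP8, a short subunit that helps hold the membrane part of the enzyme together, took 0.178%, 0.118%, 0.257% and 0.224% in fetal, 0.246%, 0.286%, 0.240% and 0.262% in control, and 0.375%, 0.296%, 0.300% and 0.244% in shunt libraries. Its groups overlapped in all 3 comparisons on this scale. Reads in the stretch that ATP8 shares with ATP6 could fall to either gene, and the sources used here do not say how such reads were counted. Reads from nuclear copies of mitochondrial DNA, which mammalian genomes carry, could likewise be shared or lost for all 6 genes.

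**Figure D2:**
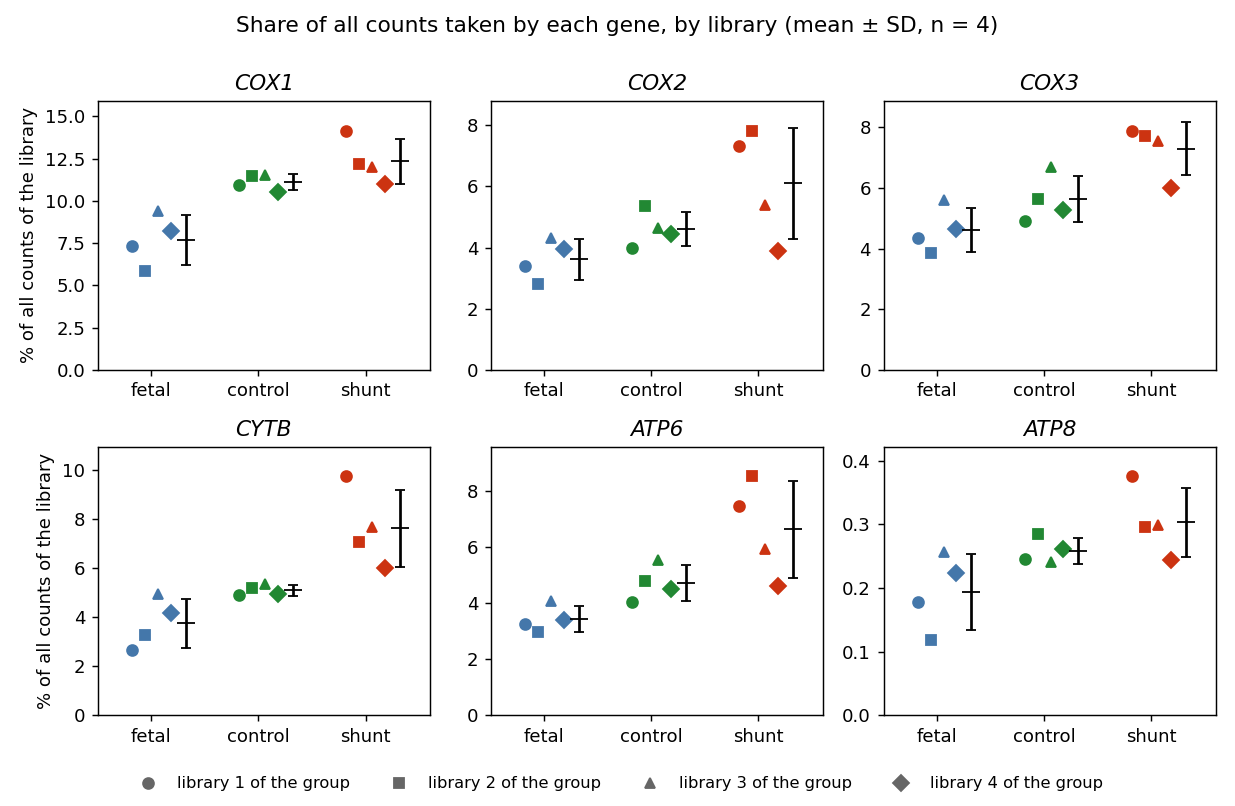
Percent of all counts of the library (y axis, from 0) for each gene in fetal, control and shunt libraries, with 1 symbol per library and the mean ± SD (n = 4) at the right of each group. Shunt libraries of CYTB, at 6.00% to 9.72%, lie above all controls, whose highest value is 5.36%, and shunt 4 lies among or below the controls for the other 5 genes.

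Between shunt and fetal ventricles all 6 genes rose, by log2 changes of 1.76 to 2.15. These changes are relative to TMM scaling (trimmed mean of M values, which sets libraries level on the bulk of genes), and calls were made in edgeR's quasi-likelihood test where the p adjusted by Benjamini-Hochberg over all 13065 genes was under 0.05. COX1 rose by 1.80 on the log2 scale (with an SE of 0.330 and an edgeR adjusted p = 0.00371), COX2 by 1.96 (SE 0.402, adjusted p = 0.00664) and COX3 by 1.80 (SE 0.339, adjusted p = 0.00419). CYTB rose by 2.13 (SE 0.364, edgeR adjusted p = 0.00278), ATP6 by 2.15 (SE 0.389, adjusted p = 0.00346) and ATP8 by 1.76 (SE 0.356, adjusted p = 0.00611). Of all genes tested, 9.16% were called higher in this comparison, and the 6 genes share 1 pool of mitochondrial RNA, so they are not 6 independent results. Their median log2 change was 1.88, against -0.01 over all tested genes and 2.08 over the 7 ND genes. All 7 ND genes were called higher as well, so these calls are not particular to the 6. All 6 changes were positive, as were 49.2% of those of all genes. In TMM-scaled CPM the shunt and fetal libraries did not overlap for any of the 6, as for 9.12% of all genes in this direction. DESeq2's Wald test called the 6 as well, beside 13.2% of all genes.

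The sizes of these changes rested on the scaling and on shunt 1 and shunt 2. With library totals as the only scaling, which moved the median of all genes to -1.02, all 6 stayed called, with log2 changes from 0.64 for ATP8 to 1.02 for CYTB (edgeR adjusted p from 0.00296 to 0.0312). On that scale 1.05% of all genes were called higher. In share of all counts the shunt and fetal libraries did not overlap for COX1, COX3, CYTB and ATP6, as for 0.658% of all genes in this direction. Without shunt 1 and shunt 2 and with TMM the changes were 1.02 to 1.50, and 5 of the 6 were called beside 5.39% of all genes, with ATP8 at 1.11 (edgeR adjusted p = 0.0575).

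Between control and fetal ventricles the 6 genes had log2 changes of 0.66 to 0.89 in favour of controls, and edgeR called 0 of them, beside 2.66% of all genes called higher. Positive changes were seen for 49.7% of all genes. With library totals, which moved the median of all genes to -0.41, the 6 ran from 0.29 to 0.53, again with 0 called, beside 0.758% of all genes. COX1 stood at 0.89 (SE 0.322, edgeR adjusted p = 0.138), ATP6 at 0.84 (SE 0.375, adjusted p = 0.246) and CYTB at 0.79 (SE 0.351, adjusted p = 0.241). ATP8 stood at 0.75 (SE 0.348, edgeR adjusted p = 0.265), COX2 at 0.71 (SE 0.390, adjusted p = 0.354) and COX3 at 0.66 (SE 0.330, adjusted p = 0.30). At an unadjusted p under 0.05 there were 4 of the 6 by edgeR, against 9.15% of all genes in the same direction. DESeq2's Wald test called COX1 alone of the 6 (adjusted p = 0.0401), beside 4.76% of all genes called higher. Libraries of COX1, CYTB and ATP6 did not overlap in TMM-scaled CPM, as for 9.18% of all genes. In share of all counts this held for COX1 alone of the 6, against 2.40% of all genes. Shunt 1 and shunt 2 enter this comparison only through the row filter, the TMM scaling and the shared estimate of spread. Without them COX1 and ATP6 were called (edgeR adjusted p = 0.0249 and 0.0352), beside 6.41% of all genes called higher.

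For shunt against control ventricles at 4 to 6 weeks, CYTB was the gene of the 6 that was called, beside 2.30% of all genes called higher. CYTB rose from a control mean of 48055 ± 5701 CPM to 121841 ± 51825 CPM with the shunt (SD, n = 4), or by 1.34 on the log2 scale, with an SE of 0.355 (edgeR adjusted p = 0.0496), and its libraries were apart in TMM-scaled CPM, as for 6.06% of all genes. Positive changes were seen for all 6, and for 50.7% of all genes. The other members had ATP6 at 1.31 (SE 0.379, edgeR adjusted p = 0.0581), COX2 at 1.24 (SE 0.394, adjusted p = 0.0728) and COX3 at 1.13 (SE 0.333, adjusted p = 0.0609). ATP8 stood at 1.01 (SE 0.349, edgeR adjusted p = 0.0889) and COX1 at 0.91 (SE 0.322, adjusted p = 0.0933). The median of the 6 was 1.19, against 0.01 over all tested genes and 1.22 over the ND genes. Whether the change of CYTB differs from that of the others was not tested.

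The CYTB call stood at the edge of the threshold and was lost in 14 of 19 alternative settings. In 12 of the 14 the log2 change stayed between 1.12 and 1.42, and in the other 2 it was smaller. With library totals its log2 change was 0.58 (edgeR adjusted p = 0.0848), and those of the 6 genes ran from 0.15 for COX1 upward with 0 called, beside 0.0995% of all genes. This scaling moved the median log2 change of all genes to -0.59. Without shunt 1 and shunt 2 the 6 changes ran from 0.30 for COX2 to 0.70 for CYTB, 0 were called beside 0.328% of all genes, and the adjusted p of CYTB was 0.299. Without shunt 4, the shunt library with the lowest share of the 6 genes, all 6 were called (edgeR adjusted p from 0.0104 to 0.0269), beside 9.33% of all genes called higher, and without shunt 3 there were 4, beside 7.20%. The count was 0 when any other single library of the 12 was left out. DESeq2's Wald test called all 6 (adjusted p from 0.00287 to 0.0302), beside 8.81% of all genes called higher.

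**Figure D3:**
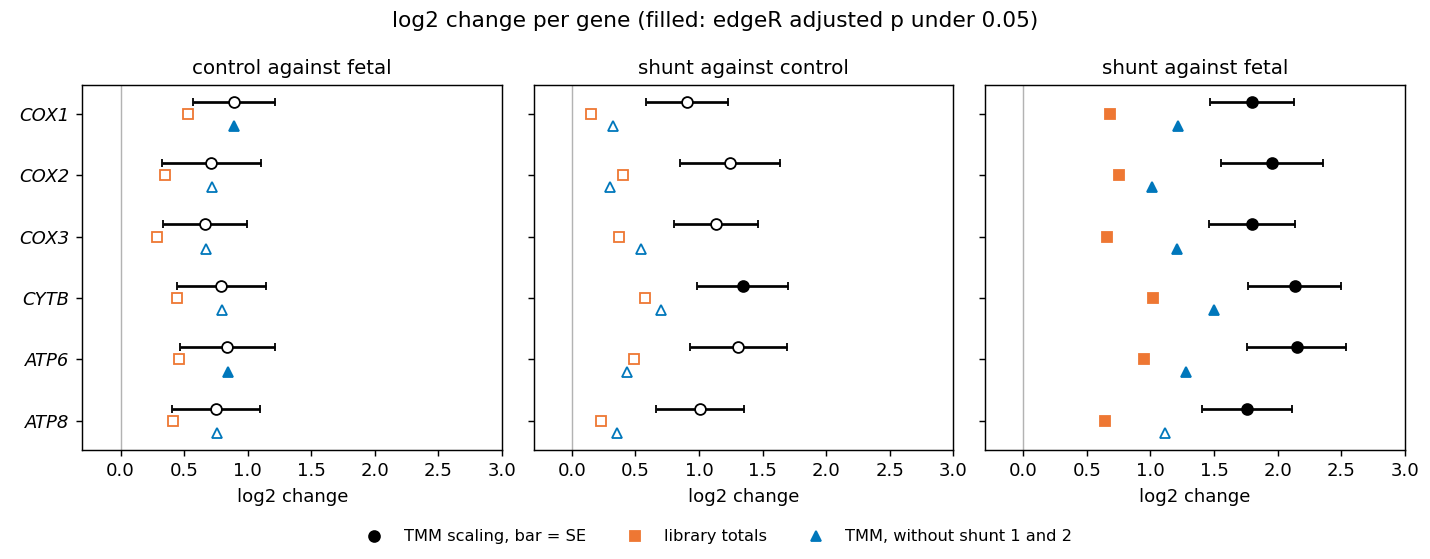
log2 change of each gene (x axis) in the 3 comparisons, with TMM scaling (circles, bars show the SE), with library totals (squares) and with TMM but without shunt 1 and shunt 2 (triangles); filled symbols have an edgeR adjusted p under 0.05. All symbols lie above 0, and for shunt against fetal all but the ATP8 triangle, at 1.11, are filled.

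Each gene was next taken as a share of the counts of the 13 mitochondrially encoded genes, a measure that depends neither on how much of a library is mitochondrial nor on TMM scaling. Such shares also carry gene length, so they were compared between libraries and not between genes. The COX1 share varied more among shunt libraries than in the other groups. It held 24.8%, 22.0%, 22.8% and 23.5% of mitochondrial counts in fetal 1 to fetal 4, 24.6%, 24.6%, 23.0% and 24.1% in control 1 to control 4, and 19.5%, 17.1%, 22.0% and 24.1% in shunt 1 to shunt 4. The libraries with the largest mitochondrial share, shunt 1 and shunt 2, thus had the lowest COX1 share of all 12, and shunt 4 lay within the control range. The mean was 20.7% ± 3.05 in shunt and 24.1% ± 0.761 in control libraries (SD, n = 4, two-sided exact permutation p = 0.0571, Benjamini-Hochberg adjusted p = 0.223 over 39 tests of 13 genes in 3 comparisons). In shunt 3 and shunt 4 alone the COX1 mean was 23.1%.

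The CYTB share was above every control in 3 of the 4 shunt libraries. It held 13.4%, 14.0% and 13.1% of mitochondrial counts in shunt 1, shunt 3 and shunt 4 and 9.86% in shunt 2, against 10.7% to 11.3% in the controls. Among the fetal libraries it held 12.2%, 12.0% and 11.9% in fetal 2 to fetal 4 and 9.00% in fetal 1. The shunt mean of 12.6% ± 1.87 and the control mean of 11.1% ± 0.262 did not differ beyond the spread (SD, n = 4, two-sided exact permutation p = 0.143, adjusted p = 0.371 over the 39 tests). Among the shunt libraries shunt 2 alone lay below the control range. The difference of 1.55 points became 2.47 without shunt 2 (exact permutation adjusted p = 0.223). It became 2.53 without shunt 1 and shunt 2, where the libraries of the groups did not overlap (exact permutation p = 0.133, adjusted p = 0.429). That unadjusted p is the smallest that 2 against 4 libraries can give in this test. With so few shunt libraries neither test could pass the threshold, even before adjustment. They therefore do not decide whether the CYTB share differed.

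COX3 held 13.3% to 14.7% in fetal, 11.1% to 13.4% in control and 10.8% to 13.8% in shunt libraries. Fetal and control libraries overlapped by a narrow margin, at means of 14.0% ± 0.679 and 12.2% ± 0.948 (SD, n = 4, two-sided exact permutation p = 0.0571, adjusted p = 0.223). COX2 held 10.5% to 11.5% in fetal, 8.98% to 11.5% in control and 8.51% to 11.0% in shunt libraries. ATP6 held means of 10.5% ± 0.720, 10.2% ± 0.851 and 10.8% ± 0.830 of mitochondrial counts in the fetal, control and shunt group. ATP8 held 0.443% to 0.642%, 0.481% to 0.613% and 0.415% to 0.549%. None of the 18 tests of these shares passed an unadjusted p under 0.05 in the exact permutation test, whose smallest possible p with 4 against 4 libraries is 0.0286, and the lowest adjusted p was 0.223. limma on the log2 shares gave 1 unadjusted p under 0.05, for COX1 in shunt against control (p = 0.0405, adjusted p = 0.288), and 0 adjusted.

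The 6 genes as a block held 70.5% ± 0.941 of the mitochondrial counts in fetal, 68.1% ± 2.09 in the controls and 66.6% ± 4.62 with the shunt (SD, n = 4), the rest being the 7 ND genes. The values were 69.3% to 71.6% in fetal and 65.3% to 70.3% in control libraries, and 64.7%, 61.1%, 71.2% and 69.5% in shunt 1 to shunt 4. Shunt 2 was the lowest of all libraries, and there ND2 and ND3 held 13.6% and 4.43%, against at most 10.6% and 2.78% in any other library.

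**Figure D4:**
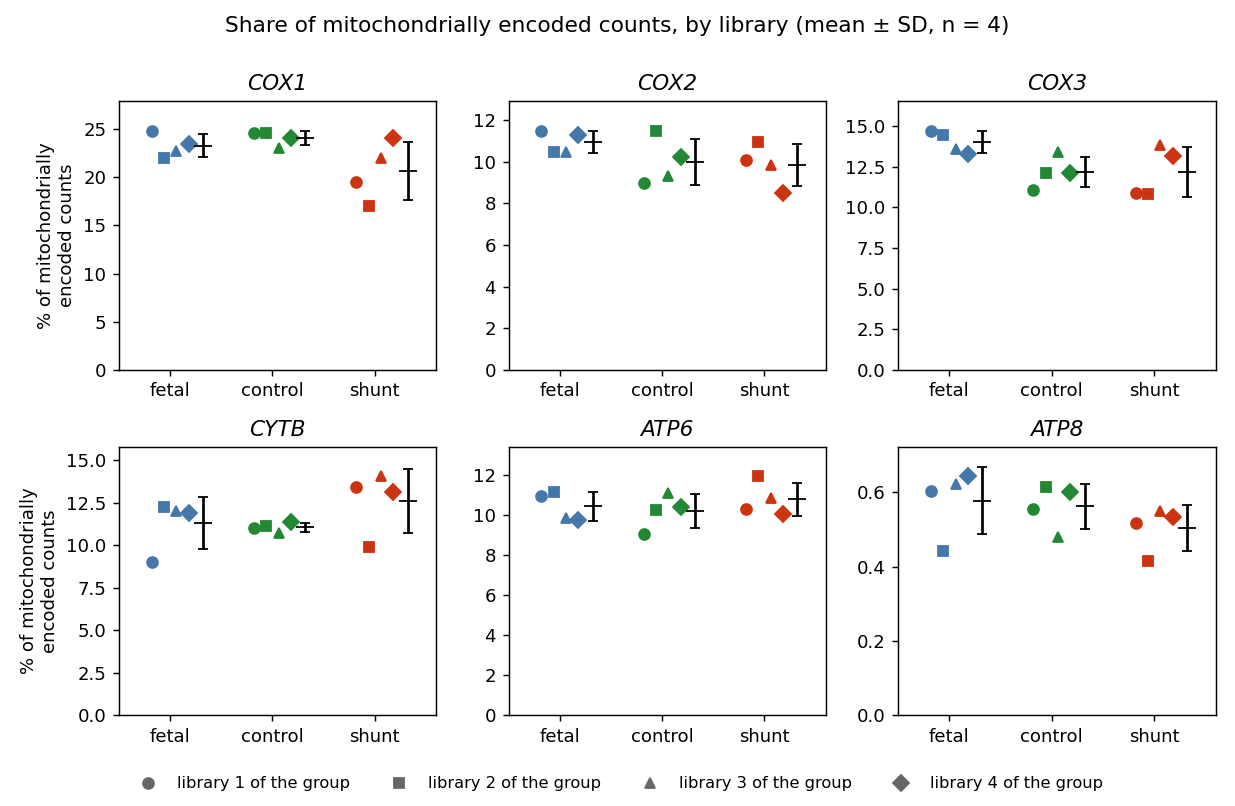
Percent of mitochondrially encoded counts (y axis, from 0) for each gene in fetal, control and shunt libraries, with 1 symbol per library and the mean ± SD (n = 4) beside them. COX1 is lowest in shunt 2 (17.1%) and shunt 1 (19.5%), and CYTB is at 13.1% or more in the other 3 shunt libraries than shunt 2.

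Ratios of counts between neighbouring or partner genes were also compared. For ATP6 over COX3, which adjoin on the mitochondrial genome, the ratio was 0.748, 0.774, 0.729 and 0.738 in fetal 1 to fetal 4 and 0.820, 0.847, 0.832 and 0.859 in control 1 to control 4. It was 0.950, 1.10, 0.787 and 0.768 in shunt 1 to shunt 4. Fetal and control libraries did not overlap (log2 difference 0.17, two-sided exact permutation p = 0.0286, the smallest that 4 against 4 can give, and adjusted p = 0.257 over 9 tests of 3 ratios). The shunt libraries lay on both sides of the control range (shunt against control, exact permutation adjusted p = 0.698).

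COX2 over COX1, subunits of the same complex, was 0.461 to 0.480 in fetal, 0.365 to 0.466 in control and 0.518, 0.642, 0.449 and 0.353 in shunt 1 to shunt 4. The shunt group thus held both the highest and the lowest ratio, and its mean of 0.490 ± 0.121 did not differ from the control mean of 0.415 ± 0.0423 beyond the spread (SD, n = 4, exact permutation adjusted p = 0.514). ATP8 over ATP6, which lie on the same messenger RNA, was 0.0396 to 0.0656 in fetal, 0.0432 to 0.0611 in control and 0.0347 to 0.0530 in shunt libraries. Its mean was 0.0558 ± 0.0117, 0.0555 ± 0.00827 and 0.0470 ± 0.00833 in these groups (SD, n = 4), and the groups overlapped. Of the 9 tests of ratios 0 passed after adjustment, and 1 had an unadjusted exact permutation p under 0.05. A single ratio at the smallest possible p could not pass after adjustment.

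**Figure D5:**
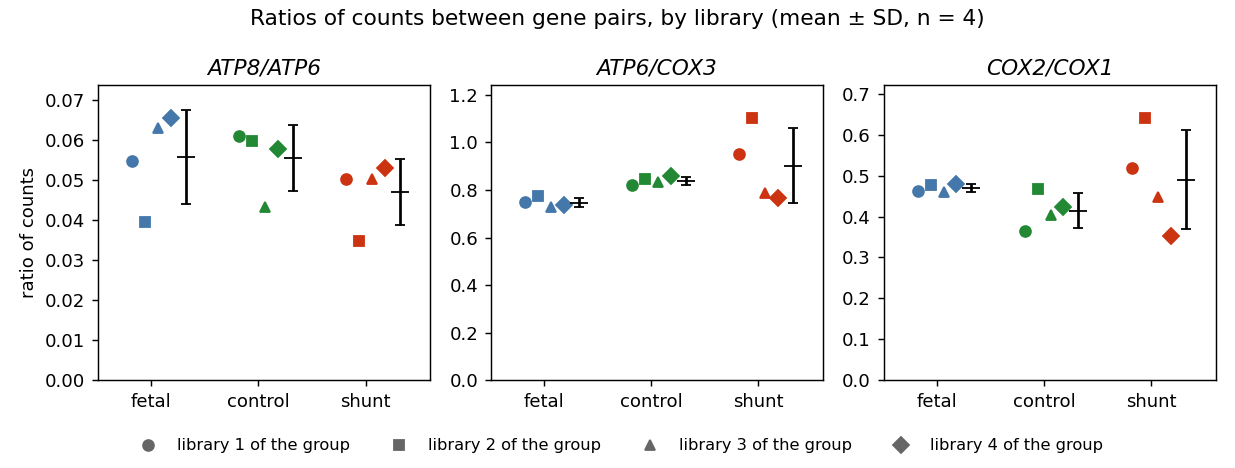
Ratio of counts (y axis, from 0) for ATP8 over ATP6, ATP6 over COX3 and COX2 over COX1 in fetal, control and shunt libraries, with 1 symbol per library and the mean ± SD (n = 4). Fetal (0.729 to 0.774) and control (0.820 to 0.859) libraries are separate for ATP6 over COX3, and shunt 2 is the extreme library in all 3 panels.

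Few nuclear partners of these genes were found by symbol in the table. Among the genes fixed as nuclear subunits of complex IV (17 genes), its assembly (24), complex III (15), cytochrome c (2), mitochondrial translation and the regulators of mitochondrial number (10), 0 had a symbol. Of 21 nuclear genes of ATP synthase, the enzyme that ATP6 and ATP8 complete, 4 were tested. Between control and fetal libraries all 4 had positive log2 changes with 0 called: ATP5MC1 and ATP5MC2, which encode the rotating ring beside ATP6, stood at 0.51 (edgeR adjusted p = 0.183) and 0.13, and the stalk subunits ATP5PO and ATP5PD at 0.49 and 0.41. Between shunt and control libraries they ran from -0.31 for ATP5MC2 to 0.60 for ATP5PD (edgeR adjusted p = 0.143), with a median of -0.09 and 0 called. Between shunt and fetal libraries ATP5PD rose by 1.01 (SE 0.258, edgeR adjusted p = 0.019), ATP5PO stood at 0.53 (adjusted p = 0.0725), and ATP5MC2 at -0.18. The median of the 4 was 0.41, against 1.88 for the 6 mitochondrial genes.

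Complex I feeds electrons towards CYTB and the COX proteins, and 3 of its nuclear genes, found by symbols starting NDUF, were tested. The complex II genes SDHA, SDHB, SDHC and SDHD were listed too but had no symbol in the table. The 3 complex I genes had a median log2 change of 0.96 between shunt and fetal libraries. NDUFA12 rose by 0.97 (SE 0.227, edgeR adjusted p = 0.0121) and NDUFB6 by 0.96 (SE 0.255, adjusted p = 0.0232), while NDUFB8 stood at 0.56 (adjusted p = 0.0762). Between shunt and control libraries none of the 3 was called, with NDUFA12 at 0.23 and NDUFB8 at 0.11. Between control and fetal libraries none was called either, with NDUFB6 at 0.79, NDUFA12 at 0.74 (edgeR adjusted p = 0.0748) and NDUFB8 at 0.45.

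Among genes of mitochondrial RNA 2 of 38 listed were tested. SLIRP encodes an RNA-binding protein that steadies mitochondrial messenger RNAs. It rose between shunt and fetal libraries by 1.02 (SE 0.219, edgeR adjusted p = 0.00827), and stood at 0.66 (adjusted p = 0.0782) between shunt and control and at 0.36 between control and fetal libraries. PUS1, which makes pseudouridine in transfer RNAs, rose between shunt and fetal libraries by 0.88 (SE 0.268, edgeR adjusted p = 0.039) and between shunt and control libraries by 1.35 (adjusted p = 0.0344), and stood at -0.47 between control and fetal libraries. Of 10 genes listed under carriers and coupling 5 were tested, and 3 rose between shunt and fetal libraries, where 9.16% of all genes were called higher. These were the ADP/ATP carriers SLC25A4 at 1.07 (SE 0.229, edgeR adjusted p = 0.00806) and SLC25A5 at 0.72 (SE 0.196, adjusted p = 0.0249), and UCP2, of the uncoupling protein family, at 2.34 (SE 0.497, adjusted p = 0.00802). UCP2 counts were low, at 1.41 to 2.14 CPM in fetal, 1.88 to 16.1 in control and 5.90 to 11.8 in shunt libraries. SLC25A5 was low too, at 7.24 to 10.5 CPM in fetal, 5.37 to 6.82 in control and 10.4 to 15.6 in shunt libraries. Between shunt and control libraries SLC25A5 rose by 1.11 (adjusted p = 0.0276) and SLC25A4 stood at 0.56 (adjusted p = 0.125), UCP2 at -0.08 and the outer membrane channel gene VDAC1 at -1.10 (adjusted p = 0.116), with a median of 0.02 over the 5. For VDAC1 shunt 1 and shunt 2 had 34.8 and 57.8 CPM, shunt 3 and shunt 4 had 188 and 199 CPM, and the controls had 197 to 318 CPM. Its log2 change was -0.45 between shunt and fetal libraries and 0.65 between control and fetal libraries, neither called. Without shunt 1 and shunt 2 it was 0.22 between shunt and fetal libraries, and 0.65 with a call between control and fetal libraries (edgeR adjusted p = 0.0185). Between control and fetal libraries UCP2 rose by 2.42 (adjusted p = 0.0128) and SLC25A4 stood at 0.51.

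With library totals the calls of these nuclear genes in shunt against fetal were lost, except that of UCP2. ATP5PD was at -0.10, NDUFB6 at -0.094, NDUFA12 at -0.055, SLIRP at -0.067, PUS1 at -0.32 and SLC25A5 at -0.28, all with a sign opposite to that under TMM and no call, and SLC25A4 at 0.046 was not called either. UCP2 kept its call at 1.38 (edgeR adjusted p = 0.0493), as did the 6 mitochondrial genes. The calls of SLC25A5 and PUS1 in shunt against control (0.53 and 0.60) and of UCP2 in control against fetal (2.02, adjusted p = 0.0517) were lost with library totals. On that scale ATP5MC2 was called lower in shunt against fetal (-1.16) and PUS1 in control against fetal (-0.92). Of all 13065 genes, 7933 were called there in shunt against fetal, 137 of them higher, with a median log2 change of -1.02. In control against fetal 805 were called, 99 of them higher, with a median of -0.41. Without shunt 1 and shunt 2, shunt against fetal lost the calls of ATP5PD (0.61, adjusted p = 0.087), NDUFB6 (0.66, adjusted p = 0.114) and PUS1 (0.24, adjusted p = 0.50), and shunt against control lost that of PUS1 (0.71, adjusted p = 0.124). Reads of SLC25A4 and SLC25A5, and of ATP5MC1 and ATP5MC2, may be shared with close relatives or copies, so their levels are uncertain.

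Among 466 named candidates outside the mitochondrial genome, those whose log2 CPM most resembled the mean of the 6 over 12 libraries included ATP5PD (Pearson r = 0.961), the proteasome subunit genes PSMA6 (0.930) and PSMB8 (0.910), and the fatty acid carrier gene FABP5 (0.907). With group means removed, r was 0.898 for ATP5PD, 0.728 for PSMA6, 0.675 for PSMB8 and 0.688 for FABP5. Without shunt 1 and shunt 2 it was 0.967, 0.933, 0.762 and 0.873 in the order ATP5PD, PSMA6, PSMB8 and FABP5. The libraries share their TMM factors across genes, from 0.455 in shunt 2 to 1.61 in fetal 2, so these values describe likeness only.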

How the data were processed

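Right ventricular mRNA of 12 libraries was sequenced as read pairs of 75 bases (QIAseq Stranded mRNA kit, NextSeq), per the labels' protocols. What the authors deposited is a matrix of raw counts by gene, headed as total counts per the file headers. The sources used here name no aligner, counting program or genome build, and do not say whether strand was used. Columns were matched to samples by library name, and sample titles gave the groups.

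The filter filterByExpr left 13065 of 27054 rows. They were scaled by TMM and fitted as 3 groups in a single robust quasi-likelihood model with edgeR 4.0.16 in R 4.3.3, so all 12 libraries share an estimate of spread. SE was computed as the absolute log2 change over root F. Log2 CPM had a prior count of 2. DESeq2 1.42.0 and limma 3.58.1 served as alternatives, and shares and ratios were compared by two-sided exact permutation. Wilson intervals (95%) cover counting error only. Pairs of libraries within groups differed by a chi-square of at least 24.3 a gene, well beyond counting noise. The rule for the 6 genes uses their names alone, but they and all lists were chosen with earlier results of these data known. Nuclear genes named are list members called, and up to 4 per list with the smallest p, plus the 5 named genes most correlated with the mean of the 6, of which 1 is not reported here.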

Additional observations from a re-analysis of the deposited data

Results flagged for a closer look

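In 3 cases 1 library lay far from the other 3 of its group by Dixon's criterion, among 51 groups of 4 screened. Chance alone flags about 5% of such groups. COX3 took 6.00% of all counts in shunt 4, against 7.56% to 7.88% in the other shunt libraries. CYTB held 9.00% of mitochondrially encoded counts in fetal 1, against 11.9% to 12.2% in the other fetal libraries. The ratio of ATP8 to ATP6 was 0.0347 in shunt 2, against 0.0502 to 0.0530 in the other shunt libraries.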

How the results depend on the processing

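Each of the 6 genes had a positive log2 change in every setting tried, and for shunt against fetal 5 or 6 of them were called throughout. For control against fetal the count of 0 became 1 with the DESeq2 Wald test and 2 without shunt 1 and shunt 2. For shunt against control the count of 1 became 0 with library totals, with TMM without mitochondrially encoded genes (2.09% of all genes called higher), with the replicate block (0.268%) and without shunt 1 and shunt 2, and 6 with the Wald test, and ranged from 0 to 6 with 1 library left out. Over all genes, the Wald test called 1248 in control against fetal and 1981 in shunt against control, against 675 and 522. Leaving out shunt 1 and shunt 2 gave 1672, 64 and 1314 genes for the control to fetal, shunt to control and shunt to fetal comparisons, and leaving out 1 library gave 259 to 886, 6 to 2169 and 957 to 2855. With library totals 7933 genes were called in shunt against fetal, of which 137 higher, against 1197 of 2048, and 99 of 805 and 13 of 595 were higher in control against fetal and shunt against control, against 348 of 675 and 301 of 522.

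Replicate numbers did not pair the libraries: correlations of same-numbered libraries ran from -0.19 to 0.15, and 4, 1 and 0 of 8 libraries correlated best with their own number in these comparisons, taken in that order. The replicate block gave 513, 61 and 1444 called genes, and 0, 0 and 6 of the members.

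Signs turned with library totals for ATP5MC2 (-0.27) and SLIRP (-0.040) in control against fetal, for ATP5PD (-0.13), NDUFB8 (-0.50), NDUFA12 (-0.42), SLIRP (-0.028) and SLC25A4 (-0.080) in shunt against control, and for ATP5PD (-0.10), ATP5PO (-0.48), NDUFB6 (-0.094), NDUFB8 (-0.43), NDUFA12 (-0.055), SLIRP (-0.067), PUS1 (-0.32) and SLC25A5 (-0.28) in shunt against fetal. That scaling moved the median log2 change of all genes to -0.41, -0.59 and -1.02 in these comparisons, taken in that order. With 1 library left out, NDUFB8 in shunt against control ranged from -0.0056 to 0.24, ATP5MC2 in shunt against fetal from -0.29 to 0.018, and UCP2 in shunt against control from -0.43 to 0.37. UCP2 stood there at 0.11 with the replicate block and 0.015 without shunt 1 and shunt 2, and VDAC1 in shunt against fetal at 0.22 without both.

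Differences in share of mitochondrial counts near 0 turned too, none past the threshold. With a library of either compared group left out, the exact permutation test could not pass that threshold. With the sum of the 6 genes as denominator they were 0.236 points for CYTB, 0.161 for ATP6 and 0.00591 for ATP8 in control against fetal, and 0.254 for COX2 and 0.355 for COX3 in shunt against control. COX3 stood at 1.33 there without shunt 1 and shunt 2. With 1 library left out, control against fetal ranged from -0.978 to 0.102 for CYTB, -0.549 to 0.136 for ATP6 and -0.0602 to 0.012 for ATP8. Shunt against control ranged from -0.508 to 0.355 for COX2 and -0.559 to 0.447 for COX3, and ATP6 in shunt against fetal from -0.0271 to 0.592. Log2 differences in ratio ranged from -0.15 to 0.12 for ATP8/ATP6 in control against fetal (-0.000287 without log2), -0.014 to 0.16 for ATP6/COX3 in shunt against control and -0.11 to 0.17 for COX2/COX1 in shunt against fetal. The cause of these turns was not tested. A denominator with ribosomal and transfer RNA rows was not run, since those rows carry no name in the table.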
